A study of Mus musculus with 12 samples.

Results

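The levels of 10 genes of the cell division cycle, Mki67, Top2a, Cdk1, Ccna2, Ccnb1, Ccnb2, Ccnd1, Ccne2, Cdkn1a and Birc5, were followed in livers of C57BL/6N mice. They were taken by symbol from 26031 gene identifiers with read counts in at least 1 library, and all 10 were found. RNA was sequenced from 12 liver samples in 4 groups of 3. HFD PCN mice (replicates 5, 11 and 27) ate a high-fat diet and were injected with pregnenolone 16α-carbonitrile (PCN), a synthetic steroid and agonist of the pregnane X receptor in rodents, at 50 mg/kg intraperitoneally once a day for 4 days. HFD Vehicle mice (15, 23 and 55) ate the same diet and received 30% DMSO in corn oil on the same schedule. HFD mice (4, 30 and 38) ate the diet with no injection, and Chow mice (8, 17 and 19) ate regular chow with no injection. Both diets began at 6 weeks of age and lasted 15 weeks. The labels do not name the solvent of PCN. They do not say either that each replicate was a separate animal, so p-values measure the spread between these samples only.

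Cyclins and cyclin-dependent kinases (CDKs) drive the cell cycle in steps: D-type cyclins act in G1, E-type cyclins at entry into S phase, cyclin A in S and G2, and cyclin B with Cdk1 at mitosis. Genes that act at mitosis are transcribed late in the cycle and are nearly silent in resting cells. Most hepatocytes of the adult liver rest outside the cycle and can re-enter it after injury or loss of tissue, so that proliferation transcripts are scarce in undisturbed liver. Cdkn1a (p21) encodes an inhibitor of CDKs and is a target of the tumour suppressor p53.

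The DNA ahead of some of these genes is shown because the mitotic genes were mostly high or low together in the HFD and HFD Vehicle libraries below. Cdkn1a had its lowest values in HFD PCN livers. Mitotic genes have counts there only where they were called higher than in Chow livers, so selection sets part of any contrast with Cdkn1a. RefSeq promoter sequence (build GRCm38.p6) was at hand for 7 of the 10 genes, and 250 bases before each annotated start were searched on both strands for TTTGAA, known as the cell cycle homology region, for CCAAT, the letters that NF-Y recognises, and for E2F-like letters (TTTGGCGC, TTTCCCGC, TTTCGCGC or TTTGCCGC). The 150 bases before the start of 3 mitotic genes and of Cdkn1a read as follows, on the strand of the gene. Capitals mark TTTGAA or CCAAT, or the same letters read from the other strand, and in Cdkn1a, shown at the first of its RefSeq starts, a pair of CATG with any 6 bases between them.
Mki67, chr7:135716380-135716529, minus strand: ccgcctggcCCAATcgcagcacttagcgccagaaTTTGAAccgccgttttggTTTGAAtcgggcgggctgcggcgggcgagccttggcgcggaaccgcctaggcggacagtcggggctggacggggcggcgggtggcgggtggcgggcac
Top2a, chr11:99024190-99024339, minus strand: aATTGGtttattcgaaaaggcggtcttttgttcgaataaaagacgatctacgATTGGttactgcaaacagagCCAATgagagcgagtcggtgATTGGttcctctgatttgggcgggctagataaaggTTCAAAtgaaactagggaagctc
Ccnb2, chr9:70421555-70421704, minus strand: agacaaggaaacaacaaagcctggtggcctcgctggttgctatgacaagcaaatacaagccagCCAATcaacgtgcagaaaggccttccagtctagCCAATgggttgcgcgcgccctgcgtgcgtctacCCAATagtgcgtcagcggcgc
Cdkn1a, chr17:29090829-29090978, plus strand: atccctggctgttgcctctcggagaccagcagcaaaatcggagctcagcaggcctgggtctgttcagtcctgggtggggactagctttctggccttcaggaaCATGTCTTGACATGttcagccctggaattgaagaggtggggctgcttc
Among the 6 mitotic genes with a window (Mki67, Top2a, Cdk1, Ccnb1, Ccnb2 and Birc5), 5 held CCAAT, each at least 2 times within the 250 bases. Of 32851 RefSeq windows of that length, 33.8% held CCAAT and 10.1% held it at least 2 times. TTTGAA was found in 4 of the 6 (16.0% of all windows), and the E2F-like letters in Cdk1 (1.86% of all windows). The Birc5 window held none of the searched letters. The paired CATG, which resembles the letters p53 recognises, was found in 1 member and in 0.490% of all windows. It and the count of repeated CCAAT were chosen after these windows had been read. A match of letters is a description and not a bound site.

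Counts of every gene were at hand for the HFD Vehicle and HFD libraries, whose totals ran from 7466378 (HFD 38) to 38161486 (HFD 4) reads. For Chow and HFD PCN libraries the tables used here give counts only of genes that passed the authors' test in some comparison. Counts in all 12 libraries were therefore at hand for 5 of the 10 genes: Mki67, Top2a, Ccnb1, Ccnd1 and Cdkn1a. Ccnb2 had Chow counts but no HFD PCN counts, and Cdk1, Ccna2, Ccne2 and Birc5 had neither. Levels are read counts divided by a size factor for library depth that puts all 12 on a common scale, and folds are ratios of group means. Per kilobase of exon, which allows genes to be compared, Cdkn1a (176 normalized counts per kilobase) and Ccnd1 (123) had the highest HFD means of the 10. Their libraries overlapped. Ccnb2 (20.7), Mki67 (16.0) and Ccne2 (14.6) came next, with overlapping libraries, and Top2a (11.3) lay below them. Ccna2 (5.73), Cdk1 (5.48), Birc5 (5.48) and Ccnb1 (4.44) lay lowest, and their libraries overlapped too. Exon lengths are those of GENCODE M21, whose bounds match the deposited ones for 9 of the 10 genes, all but Cdkn1a.

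High-fat feeding without injection went with higher mitotic transcripts. Mki67, which encodes the proliferation marker Ki-67, rose 3.59-fold in HFD livers over Chow livers, and Top2a, the topoisomerase that untangles replicated chromosomes, rose 3.99-fold. Ccnb1 and Ccnb2, the B-type cyclins that carry Cdk1 into mitosis, rose with them, and so did Ccnd1, the D-type cyclin of G1. Cdkn1a did not pass the test.

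Mki67 had 132, 173 and 178 normalized counts in HFD livers, against 44.2, 30.6 and 59.7 in Chow livers. Top2a had 78.9, 111 and 115 normalized counts in HFD livers, against 35.5, 16.6 and 24.3 in Chow livers. For both genes every HFD library lay above every Chow library, with a gap wider than the spread within Chow. Ccnd1 had 525, 677 and 539 normalized counts in HFD livers, against 196, 373 and 261 in Chow livers, a ratio of 2.10. Ccnb2 had 25.8, 22.8 and 46.6 normalized counts in HFD livers, against 10.4, 5.10 and 6.63 in Chow livers, a ratio of 4.30. In Chow livers it rests on 12, 4 and 6 raw reads. These groups did not overlap either. Chow counts exist only for genes that passed a test, so no share of such separation over all genes is at hand. Ccnb1 was the scarcest, with 24, 27 and 10 raw reads in HFD livers against 4, 3 and 2 in Chow livers. Its ratio of group means was 5.91, and the depth-corrected ratio of the pooled 61 and 9 reads was 5.22 (95% exact interval 2.58 to 12, counting error only).

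In the authors' deposited table, 5 of the 10 genes passed an adjusted p of 0.05 (DESeq2), all higher in HFD, where 4.85% of 25256 tested genes passed and 2.81% were higher. The authors' deposited table gave adjusted p-values of 1.74e-08 for Mki67, 1.05e-06 for Top2a, 0.0005882 for Ccnd1, 0.006344 for Ccnb2 and 0.01048 for Ccnb1. A second test of the same counts with edgeR's quasi-likelihood method gave adjusted p-values of 0.0444 for Mki67, 0.0610 for Top2a, 0.0951 for Ccnb1, 0.112 for Ccnd1 and 0.122 for Ccnb2. So 1 of the 5 calls held, and leaving out any 1 library ended it. Only the 1226 genes called in the deposited table were tested again, of which 111 passed. That is 0.439% of the 25256 genes, but the unlisted ones could not pass. The 5 other genes are not listed among those that passed, and 4 of them have no Chow counts here. Cdkn1a, the sixth gene with Chow counts, averaged 624 ± 156 normalized counts in HFD livers and 496 ± 338 in Chow livers (SD, n = 3 each). Chow replicate 8 alone held 885, against 317 and 285 in the other Chow libraries, and the HFD over Chow ratio was 1.26 with it and 2.07 without it.

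**Figure D1:**
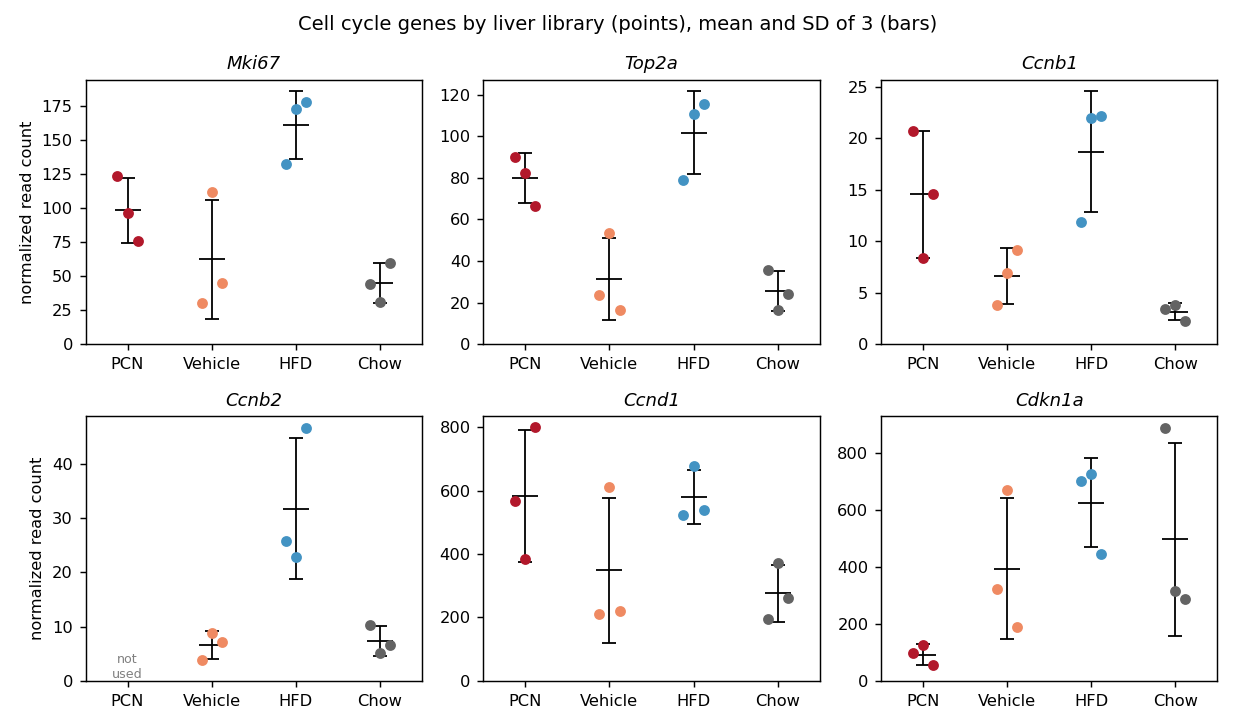
Normalized read counts of 6 cell cycle genes in each liver library (points; vertical axes start at 0 and differ between panels), with the mean and SD of 3 libraries per group. Mki67, Top2a, Ccnb1 and Ccnb2 have their highest mean in HFD livers, and Cdkn1a has its lowest in HFD PCN livers; for Ccnb2 the HFD PCN group has no counts here.

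Other genes of the cycle were read from lists of textbook members. Among all 25256 genes tested between HFD and Chow livers, 709 rose and 517 fell in the authors' deposited table. Of 74 mitosis and G2/M genes beyond the 10, 6 rose in HFD livers over Chow livers and 0 fell, in the authors' deposited table. Tpx2, which activates Aurora A on the spindle, averaged 24.9 ± 6.54 normalized counts in HFD livers and 6.57 ± 1.95 in Chow livers (SD, n = 3 each). Cenpf, a kinetochore protein, averaged 42.1 ± 10.03 in HFD livers and 15.1 ± 5.05 in Chow livers. Mad2l1, of the spindle checkpoint, rose 2.03-fold, and Ncapg2, of condensin II, rose 2.70-fold. Of 53 S phase genes, 3 rose and 1 fell, the fall being near the share of all genes. Of the replicative helicase, Mcm2 rose 2.04-fold and Mcm3 1.87-fold, and Uhrf1, a partner of the maintenance DNA methyltransferase, rose 4.41-fold. Tk1, the thymidine kinase, was 1.80-fold lower in HFD livers, at 152 ± 28.1 against 274 ± 19.9 normalized counts in Chow livers. Of 33 G1 and E2F genes 2 rose, Cdk6 at 1.34-fold and Rbl1 (p107) at 2.99-fold. Of 36 p53 pathway genes, not counting Cdkn1a, 7 rose and 0 fell. Those with the highest means were Plk3 (1.61-fold), Dglucy (1.83-fold), Cdk5rap3 (1.30-fold) and Btg2 (2.21-fold). None of 7 further CDK inhibitors was listed as changed in this comparison or in any of the other 5.

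Markers of other cell types moved in the same comparison. In the authors' deposited table, 9 of 20 macrophage markers and 6 of 12 stellate cell and fibroblast markers were higher in HFD livers and 0 were lower. Among all genes tested, 4.85% were called and 2.81% were higher. The summed level of the 6 stellate markers counted in all 12 libraries was 3434 to 5624 in HFD livers and 993 to 1171 in Chow livers, and that of 4 macrophage markers was 316 to 510 in HFD livers and 231 to 314 in Chow livers. Markers have counts in all 12 libraries only where they passed the authors' tests, so sums of this kind cover selected markers. All 6 stellate markers were called higher in HFD PCN than in Chow livers, so selection sets part of their low Chow sum. Of 8 cholangiocyte markers 3 were higher and 0 lower, and the 4 counted in all 12 libraries summed to 575 to 621 in HFD livers and 315 to 342 in Chow livers. Of 12 hepatocyte markers, 11 of which were found with counts, 3 were lower in HFD livers and 0 higher. The part of these cells in the rise of the mitotic genes was not tested. In bulk liver RNA, fewer cells of a type and less RNA per cell cannot be told apart.

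Injection of vehicle into high-fat-fed mice went with lower levels of the mitotic genes. This comparison shares its 3 HFD libraries with that of HFD against Chow, so the rise there and the fall here are not independent. In all, 7 of the 10 genes, Mki67, Top2a, Cdk1, Ccna2, Ccnb1, Ccnb2 and Birc5, had all 3 HFD Vehicle libraries below all 3 HFD libraries, a pattern seen in 9.99% of 13775 tested genes. Those 7 also had an unadjusted p under 0.05 in edgeR's quasi-likelihood test, lower in HFD Vehicle, where 12.5% of tested genes had such a p and 6.74% were lower. With adjustment over all 13775 genes none of the 10 passed in edgeR, where 0.00726% passed, which is 1 gene. The authors' deposited table called 2 of the 10, both lower in HFD Vehicle, Top2a (adjusted p = 0.01643) and Ccnb2 (adjusted p = 0.02538), where 0.792% of genes passed and 0.511% were lower. A DESeq2 refit of the counts called the same 2 (2% of genes passed), and edgeR with no expression filter called them and Mki67 (1.09% passed).

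Ccnb2 had 3.78, 8.92 and 7.12 normalized counts in HFD Vehicle livers, against 25.8, 22.8 and 46.6 in HFD livers, and was 4.80-fold lower (edgeR log2 fold change -2.19 ± 0.47 SE, adjusted p = 0.184). These values rest on 4, 9 and 7 raw reads in HFD Vehicle and 52, 28 and 21 in HFD libraries, so they carry a wide counting error. Without HFD 38 the Ccnb2 fall was 3.68-fold. Top2a had 23.6, 53.5 and 16.3 normalized counts in HFD Vehicle livers, against 78.9, 111 and 115 in HFD livers, and was 3.27-fold lower (edgeR log2 fold change -1.70 ± 0.42 SE, adjusted p = 0.233). HFD Vehicle 23 was the highest of its group for both genes, and without it the Top2a ratio was 5.10-fold. Mki67 had 30.2, 112 and 44.8 normalized counts in HFD Vehicle livers, against 132, 173 and 178 in HFD livers, a ratio of 2.58-fold lower, or 4.29-fold without HFD Vehicle 23. Its edgeR log2 fold change was -1.37 ± 0.44 (SE), with an adjusted p of 0.306.

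Cdk1, the kinase that starts mitosis, had 7.56, 18.8 and 10.2 normalized counts in HFD Vehicle livers, against 21.3, 31.0 and 28.9 in HFD livers. Ccna2, which encodes cyclin A2, had 3.78, 12.9 and 4.07 in HFD Vehicle livers, against 15.4, 32.6 and 22.2 in HFD livers. Birc5, which encodes survivin, a subunit of the chromosomal passenger complex, had 7.56, 6.94 and 9.16 in HFD Vehicle livers, against 18.9, 17.1 and 19.98 in HFD livers. Of the 7 mitotic genes Birc5 varied least within the groups, and its HFD Vehicle 23 library was the lowest of its group rather than the highest. With 8, 7 and 9 raw reads in the HFD Vehicle libraries, that order and narrow spread lie within counting error. Ccnb1 had 3.78, 6.94 and 9.16 normalized counts in HFD Vehicle livers, against 11.9, 22.0 and 22.2 in HFD livers. These 4 genes rest on 4 to 43 reads per library, so each value carries a wide counting error. The edgeR log2 fold changes were -1.13 ± 0.42 for Cdk1, -1.74 ± 0.56 for Ccna2, -1.22 ± 0.35 for Birc5 and -1.44 ± 0.48 for Ccnb1 (SE). Ccna2 was 3.38-fold lower in HFD Vehicle livers, or 5.96-fold without HFD Vehicle 23.

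The other 3 genes had overlapping groups; whether they differed from the 7 was not tested. Ccne2, which encodes cyclin E2, averaged 50.9 ± 15.9 normalized counts in HFD Vehicle livers and 50.9 ± 6.03 in HFD livers (SD, n = 3 each), with an edgeR log2 fold change of 0.01 ± 0.30 (SE), so its interval spans changes in both directions. Ccnd1 had 212, 613 and 221 normalized counts in HFD Vehicle livers, against 525, 677 and 539 in HFD livers, and Cdkn1a had 320, 667 and 189 in HFD Vehicle livers, against 702, 726 and 444 in HFD livers. For both genes HFD Vehicle 23 lay inside the HFD range and the other 2 HFD Vehicle libraries below it. Ccnd1 was 1.67-fold lower in HFD Vehicle livers, or 2.68-fold without HFD Vehicle 23 (edgeR unadjusted p = 0.0912 with all libraries). Cdkn1a was 1.59-fold lower, or 2.45-fold without it (edgeR unadjusted p = 0.132).

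**Figure D2:**
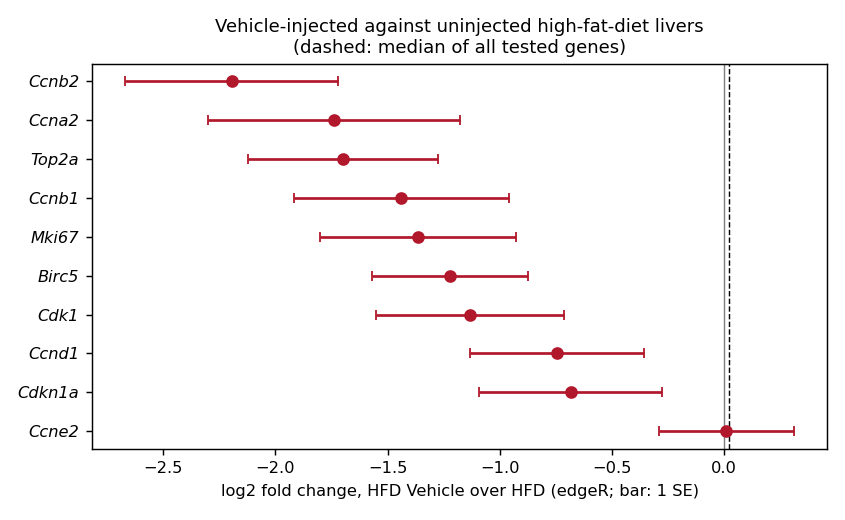
Log2 fold changes of the 10 genes, HFD Vehicle over HFD, from edgeR (points) with 1 standard error (bars), 3 libraries per group. The 7 mitotic genes lie between -2.19 and -1.13, Ccnd1 at -0.75, Cdkn1a at -0.68 and Ccne2 at 0.01; the dashed line is the median of all tested genes, 0.02.

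The wider lists had different medians in the same comparison, and the difference between lists was not tested. The median log2 fold change, HFD Vehicle over HFD, was -1.29 for the 10 genes and -0.82 for the 51 mitosis and G2/M genes that passed the expression filter, against 0.02 for all 13775 genes. Of those 51, 48 had a value below 0, 19 were lower at an unadjusted p under 0.05 in edgeR and 0 were higher. Among all 13775 genes, 928 were lower and 797 higher at that p. The median was -0.15 for 44 S phase genes, of which 32 had a value below 0, 5 were lower at that p and 1, Tk1, was higher, and -0.02 for 32 G1 and E2F genes, of which 3 were lower. It was -0.25 for 4 CDK inhibitors and 0.06 for 34 p53 pathway genes. Cenpf fell 5.33-fold, to 7.90 ± 5.18 normalized counts in HFD Vehicle livers, against 42.1 ± 10.03 in HFD livers, and was the 1 listed mitosis gene past the adjusted p in the authors' deposited table (0.002903).

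**Figure D3:**
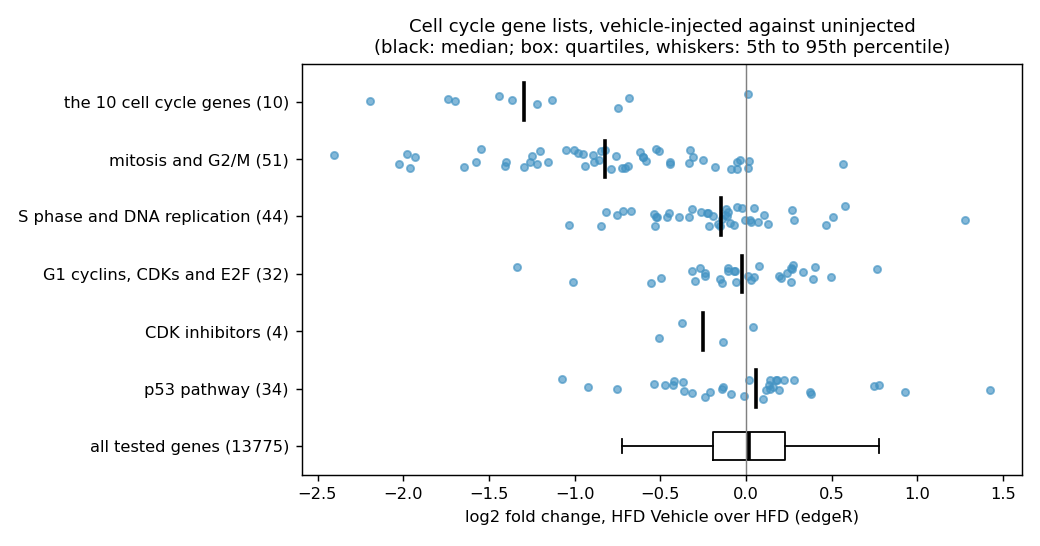
Log2 fold changes of single genes (points), HFD Vehicle over HFD, for the 10 genes and 5 lists, with list medians in black and the number of genes in brackets; the box shows all tested genes. The mitosis and G2/M points lie mostly below 0 (median -0.82), while the G1 and p53 lists centre near 0 (medians -0.02 and 0.06).

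Markers of several non-hepatocyte cells had lower sums with the injection too. The 11 endothelial markers summed to 4879 to 7442 normalized counts in HFD Vehicle livers and 8092 to 8886 in HFD livers. In edgeR 6 of the 11 were lower at an unadjusted p under 0.05, as were 6.74% of all 13775 tested genes. The 12 stellate cell and fibroblast markers summed to 6010 to 10519 in HFD Vehicle livers and 10788 to 14412 in HFD livers (4 lower), and the 7 erythroid markers to 4450 to 5202 in HFD Vehicle livers and 5964 to 8643 in HFD livers (5 of 6 tested lower). The 20 macrophage markers summed to 6812 to 10304 in HFD Vehicle livers and 9642 to 15635 in HFD livers, overlapping, with 0 of 18 tested past that p. Of 15 lymphocyte and NK markers 2 had enough reads to be tested, and Cd8a, Cd8b1, Cd3d and Ncr1 had 7 to 11 reads over the 6 libraries. No marker found in the complete table was at 0 in all 6. The part of these cells in the lower mitotic counts was not tested.

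None of the 10 genes was called between HFD Vehicle and Chow livers. The authors' deposited table (DESeq2) listed 0 of them, where 3.1% of 25520 genes passed, and the 6 genes with counts in both groups had overlapping values. Mki67 averaged 62.3 ± 43.6 normalized counts in HFD Vehicle livers and 44.8 ± 14.5 in Chow livers, Top2a 31.1 ± 19.7 in HFD Vehicle livers and 25.5 ± 9.51 in Chow livers, and Ccnb2 6.61 ± 2.61 in HFD Vehicle livers and 7.38 ± 2.72 in Chow livers (SD, n = 3 each). The edgeR unadjusted p of the 6 ran from 0.0953 (Ccnb1) to 0.706 (Ccnb2), with 0 under 0.05. The SE of these log2 fold changes was 0.43 to 0.55. Ccnb1, with a log2 fold change of 1.03 ± 0.54 (SE), still had a p above 0.05, so changes well above 1 SE can be missed at this spread. The direction turned for Mki67, Top2a and Ccnd1 without HFD Vehicle 23, for Cdkn1a and Ccnb2 without Chow 8, and for Ccnb2 without HFD Vehicle 15. Nek2, a centrosomal kinase of the mitosis list, fell to 36.6 ± 21.9 in HFD Vehicle livers, against 103 ± 3.93 in Chow livers (adjusted p = 0.01068 in the authors' deposited table).

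Cdkn1a was lower in HFD PCN livers than in every other group. Cdkn1a had 96.1, 126 and 55.1 normalized counts in HFD PCN livers, against 320, 667 and 189 in HFD Vehicle livers, 702, 726 and 444 in HFD livers and 885, 317 and 285 in Chow livers. Every HFD PCN library lay below all 9 others. How many of all genes do so cannot be given, as HFD PCN counts cover only genes that passed a test. It fell 4.24-fold against HFD Vehicle, 6.75-fold against HFD and 5.36-fold against Chow. These 3 comparisons share the same HFD PCN libraries.

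Against HFD Vehicle, Cdkn1a was 1 of the 10 genes called in the authors' deposited table (adjusted p = 0.0005652), where 1.71% of 25880 genes passed and 0.641% were lower. Against HFD it was again the 1 gene called in the authors' deposited table (adjusted p = 4.45e-17), where 3.15% of 25658 passed and 1.25% were lower. Against Chow the authors' deposited table gave it an adjusted p of 0.002951. The edgeR second test gave adjusted p-values of 0.234 against HFD Vehicle, 0.0183 against HFD and 0.0431 against Chow, so the call against HFD Vehicle did not hold in it. In that test, made only on listed genes, 15 of 442 passed against HFD Vehicle, 137 of 809 against HFD and 778 of 2032 against Chow. These are 0.058%, 0.534% and 3.1% of the genes the authors tested, but the unlisted ones could not pass. Without HFD Vehicle 23 the fall against vehicle was 2.75-fold, and without Chow 8 the fall against Chow was 3.25-fold. Leaving out HFD 4, HFD 30, HFD PCN 5 or HFD PCN 27 moved the edgeR adjusted p against HFD to between 0.0629 and 0.111, and leaving out any 1 library ended the edgeR call against Chow.

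No mitotic gene, nor Ccnd1, was called beside Cdkn1a between HFD PCN and HFD Vehicle livers. The 4 with counts had higher means in HFD PCN livers. They have HFD PCN counts only because they were called higher in HFD PCN than in Chow livers. These 4 were thus selected as high in HFD PCN livers, and the other mitotic genes have no HFD PCN counts here. Top2a had 90.1, 82.5 and 66.6 normalized counts in HFD PCN livers, against 23.6, 53.5 and 16.3 in HFD Vehicle livers. The groups did not overlap, the ratio was 2.56, or 4.00 without HFD Vehicle 23, and the edgeR p, unadjusted, was 0.0127. Top2a is not among the genes listed as passing in the authors' deposited table for that comparison. Mki67 had 123, 96.0 and 75.9 normalized counts in HFD PCN livers, against 30.2, 112 and 44.8 in HFD Vehicle livers, which overlap (ratio 1.58, edgeR unadjusted p = 0.186). Without HFD Vehicle 23 the Mki67 ratio was 2.62 (edgeR unadjusted p = 0.00399), while leaving out any other library gave an edgeR unadjusted p of 0.156 to 0.446. Ccnb1 had 38, 5 and 14 raw reads in HFD PCN livers and 4, 7 and 9 in HFD Vehicle livers, with a depth-corrected pooled ratio of 2.57 (95% exact interval 1.52 to 4.51, counting error only) and overlapping libraries. Ccnd1 averaged 584 ± 208 normalized counts in HFD PCN livers and 348 ± 229 in HFD Vehicle livers (SD, n = 3 each), a ratio of 1.68 (edgeR unadjusted p = 0.126). Without HFD Vehicle 23 the Ccnd1 ratio was 2.70 (edgeR unadjusted p = 0.00209), while leaving out any other library gave an edgeR unadjusted p of 0.0745 to 0.363.

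Between HFD PCN and uninjected HFD livers no mitotic gene was called either. Mki67 lay below HFD in every library, at 98.4 ± 23.8 normalized counts in HFD PCN livers and 161 ± 25.0 in HFD livers (1.63-fold lower, edgeR unadjusted p = 0.0172), but it is not listed as called. Top2a averaged 79.7 ± 11.99 in HFD PCN livers and 102 ± 19.9 in HFD livers, Ccnb1 14.6 ± 6.16 in HFD PCN livers and 18.7 ± 5.88 in HFD livers, and Ccnd1 584 ± 208 in HFD PCN livers and 580 ± 84.3 in HFD livers, all with overlapping libraries. The edgeR unadjusted p was 0.189 for Top2a, 0.613 for Ccnb1 and 0.960 for Ccnd1.

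Against Chow, 4 of the 10 genes rose in HFD PCN livers and Cdkn1a fell, in the authors' deposited table, where 8.1% of 25101 genes passed, 4.43% higher and 3.67% lower. Top2a rose 3.13-fold (adjusted p = 0.000116 in the authors' deposited table), with 90.1, 82.5 and 66.6 normalized counts in HFD PCN livers against 35.5, 16.6 and 24.3 in Chow livers. Mki67 rose 2.20-fold (0.007506), Ccnd1 2.11-fold (0.002491) and Ccnb1 4.60-fold (0.04207) in the same table. All 4 had every HFD PCN library above every Chow library. Counts of these groups exist only for genes that passed a test, so no share of such separation over all genes is at hand. The edgeR second test kept Top2a (adjusted p = 0.0407) and Cdkn1a of these 5, and the adjusted p was 0.0606 for Ccnb1, 0.101 for Mki67 and 0.118 for Ccnd1. Leaving out any 1 library ended the edgeR call of Top2a (adjusted p 0.0632 to 0.152). The comparison shares its Chow libraries with that of HFD against Chow.

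Other genes of the cycle and of the p53 pathway differed between HFD PCN livers and the other groups in both directions. HFD and Chow livers also differed from HFD PCN livers in having no injection, and Chow livers in diet. Of 36 p53 pathway genes, not counting Cdkn1a, 2 fell and 1 rose in HFD PCN livers against HFD Vehicle livers in the authors' deposited table. Among all genes tested, 1.71% were called against HFD Vehicle, 3.15% against HFD and 8.1% against Chow. Gadd45g, a stress-induced growth arrest gene, fell 12.9-fold, to 55.9 ± 31.8 normalized counts in HFD PCN livers, against 724 ± 271 in HFD Vehicle livers. Ddit4, an inhibitor of mTORC1, fell 2.02-fold, and Bbc3, the pro-apoptotic Puma, rose 2.77-fold to 81.9 ± 17.9, against 29.6 ± 9.93 in HFD Vehicle livers. Against HFD, 7 of the 36 fell and 2 rose. Btg2, an antiproliferative p53 target, fell 2.53-fold, Ei24 1.63-fold and Perp 1.39-fold in HFD PCN livers, while Gadd45b rose 2.79-fold. Gadd45b was as high in HFD Vehicle livers (518 ± 59.6) as in HFD PCN livers (527 ± 205), against 189 ± 61.9 in HFD livers. Against Chow, 3 fell and 5 rose. Ei24 (1.86-fold) and Perp (1.45-fold) were among those that fell, and Plk3 (2.15-fold) and Dglucy (1.48-fold) among those that rose. Plk3 averaged 1941 ± 813 in HFD PCN livers and 1890 ± 578 in HFD Vehicle livers. Dglucy averaged 967 ± 28.8 in HFD PCN livers and 966 ± 159 in HFD Vehicle livers. Bcl2l1, the anti-apoptotic Bcl-xL and 1 of 10 apoptosis inhibitors listed beside Birc5, fell 1.67-fold against HFD Vehicle, 2.10-fold against HFD and 1.92-fold against Chow, to 347 ± 47.7 in HFD PCN livers.

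**Figure D4:**
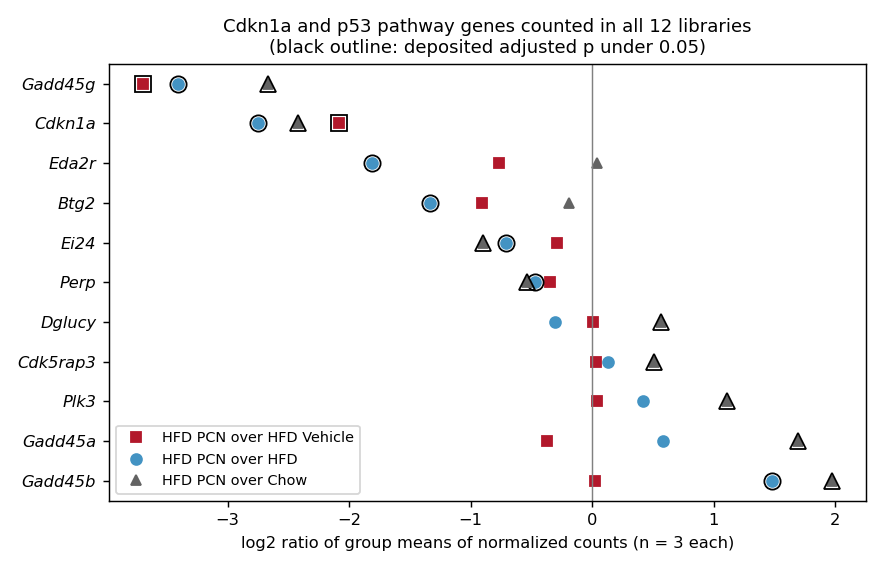
Log2 ratio of group means of normalized counts, HFD PCN over each other group (3 libraries per group), for Cdkn1a and the 10 p53 pathway genes counted in all 12 libraries; a black outline marks an adjusted p under 0.05 in the authors' deposited tables. Cdkn1a lies left of 0 in all 3 comparisons (-2.08, -2.75 and -2.42), as does Gadd45g (-3.69, -3.41 and -2.67), while Gadd45b and Plk3 lie at or right of 0.

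Of 33 G1 and E2F genes, 1 rose against HFD Vehicle, 2 rose against HFD, and 3 rose and 2 fell against Chow. Cdk4, the kinase partner of cyclin D1, rose 1.60-fold in HFD PCN livers, to 661 ± 47.8 normalized counts against 413 ± 25.5 in HFD Vehicle livers. Myc, a driver of growth and cycle entry, averaged 238 ± 117 in HFD PCN livers and 89.1 ± 20.3 in HFD livers (2.67-fold higher), and rose by 3.79-fold against Chow. Wee1, which holds Cdk1 inactive, rose 1.62-fold against HFD and 2.53-fold against Chow. Its means were 496 in HFD PCN livers and 383 in HFD Vehicle livers, and it was not called between them. The genes that fell against Chow were Rb1, the retinoblastoma protein (1.53-fold), and Tfdp2, a partner of E2F factors (1.57-fold). Of 53 S phase genes 0 were called against HFD Vehicle, 1 rose against HFD (Tk1, 2.72-fold) and 5 rose against Chow, Mcm6 (2.67-fold), Mcm5 (2.92-fold), Dut and Tk1 among them. Tk1 averaged 413 normalized counts in HFD PCN livers and 372 in HFD Vehicle livers. Of 74 mitosis genes 0 were called against HFD Vehicle, 2 fell against HFD, where 3.15% of all genes were called, and 3 fell and 2 rose against Chow, where 8.1% were. The share called in the mitosis list was below that of all genes in each of the 3 comparisons. Spc25, of the kinetochore Ndc80 complex, was 2.97-fold lower in HFD PCN livers than in HFD livers and 2.83-fold lower than in Chow livers, and Nek2 was 2.18-fold lower than in HFD livers and 2.69-fold lower than in Chow livers. Nek2 averaged 38.3 normalized counts in HFD PCN livers and 36.6 in HFD Vehicle livers. For Spc25 the means were 38.0 in HFD PCN livers and 59.6 in HFD Vehicle livers. Ccnf, which encodes cyclin F, was 1.99-fold lower than in Chow, and Ncapg2 2.60-fold higher. All of these calls are those of the authors' deposited tables. Among all genes tested, 276 of 25880 rose against HFD Vehicle and 487 of 25658 against HFD. Against Chow, 1112 of 25101 rose and 920 fell. The 1 S phase rise against HFD was thus near the share of all genes.

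Of the 11 hepatocyte markers found with counts, 7 fell in HFD PCN livers against Chow, 2 fell and 1 rose against HFD, and 0 were called against HFD Vehicle, in the authors' deposited tables. The 8 markers counted in all 12 libraries summed to 943542 to 1487410 normalized counts in HFD PCN livers, 1340510 to 2144460 in HFD Vehicle livers, 1572710 to 2184510 in HFD livers and 2258840 to 2556340 in Chow livers. The 6 stellate markers summed to 2095 to 2937 in HFD PCN livers, 1012 to 3908 in HFD Vehicle livers, 3434 to 5624 in HFD livers and 993 to 1171 in Chow livers. Markers have such counts only where they passed the authors' tests. The 8 hepatocyte markers hold the 7 called lower against Chow, and the 6 stellate markers are those called higher. Selection therefore sets part of the gaps to Chow. Against Chow, 6 of 12 stellate markers rose in HFD PCN livers and 0 fell, and of 20 macrophage markers 3 rose and 1 fell. Among all genes tested, 1.71% were called against HFD Vehicle, 3.15% against HFD and 8.1% against Chow. The part of any of these cells in the levels of the cell cycle genes was not tested.

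Over the 6 libraries with all genes counted, the profiles closest to the cell cycle genes were found by the root mean square difference of standardized log2 CPM (depth-scaled counts). Against the mean profile of the 7 mitotic genes the closest was Marcksl1 (0.0725), followed by Commd10, Fam43a, Mrnip and Slc35a5, where the median over 13768 genes was 1.32. Marcksl1, a MARCKS-related actin regulator, had 91.7, 115 and 103 normalized counts in HFD Vehicle livers, against 142, 157 and 153 in HFD livers. Closest to Cdkn1a were Mrpl57 (0.0919), Ociad2, Reep3, Mapk9 and C1qbp. Closest to Ccnd1 were Stmn1 (0.166), Gm6135, Adam15, Vmac and Map3k20. Stmn1, which encodes the microtubule regulator stathmin, had 37.8, 64.4 and 33.6 in HFD Vehicle livers, against 63.5, 66.8 and 62.1 in HFD livers, with HFD Vehicle 23 again inside the HFD range. With 6 libraries from 2 groups, a profile that separates the groups resembles any other that does.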

How the data were processed

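Total RNA of 12 liver pieces, 3 per group, was DNase-treated and made into Illumina cDNA libraries, per the labels' protocols. Per the submitters' processing notes, HISAT2, HTSeq, DESeq2 and the build GRCm38 (mm10) were used; their versions are not given in the sources used here. Each of the 6 deposited files sets 2 groups side by side, with unnormalized counts of 6 libraries, a mean of normalized counts, DESeq2's log2 fold change, its standard error and test score, a p-value and an adjusted p-value, per the file headers. The deposited log2 fold changes are smaller than the ratios of group means, which the text gives. The table of HFD Vehicle against HFD holds 26015 genes, and the other 5 give values where the deposited adjusted p is below 0.05, so a gene missing there has no value here. Where a gene stands in several of them, 15768 count values were compared and 0 differed. Counts were at hand for 2877 genes in Chow, 2455 in HFD PCN and 2227 in all 12 libraries.

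Size factors were solved by least squares from the counts and the deposited means, and joined across the files. HFD Vehicle against HFD was tested with edgeR 4.0.16 (quasi-likelihood, TMM, filterByExpr, 13775 genes kept, Benjamini-Hochberg adjustment), in R 4.3.3. The fit was tested on simulated data. For the other 5 comparisons the calls are the authors' deposited ones. Listed genes were tested again with edgeR using the recovered size factors and the dispersion trend and prior of the complete table. Adjustment was over the number of genes the authors tested. For these 5 comparisons that number is an estimate from the deposited p-values, their ranks and the adjusted p-values. Unadjusted edgeR p-values of members with counts but no deposited result were added after the data were seen. DESeq2 1.42.0 was an alternative. An exact permutation test of 3 against 3 cannot give p below 0.1. All tests were two-sided.

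The 10 genes and the 14 other lists were chosen with earlier results of these data known. The text names all 10 genes. By rule, other names come from up to 4 called genes per list and comparison, those with the highest deposited mean. Not all genes that meet this rule are named. Names beyond the rule (Gadd45g against HFD and Chow, Myc against Chow, Tk1 and some markers) were chosen after their values were seen. Coordinates were raised by 1 at the start to count from 1. Exon lengths came from GENCODE M21 and promoter sequences from RefSeq.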

Additional observations from a re-analysis of the deposited data

How the results depend on the processing

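No paired analysis was possible because the replicate numbers in the labels differ between the groups. Calls depended on the tool. With edgeR as the second test, called members numbered 1 (5 in the deposited table) for HFD against Chow, 0 (1) for HFD PCN against HFD Vehicle and 2 (5) for HFD PCN against Chow, and called genes numbered 111 (1226), 15 (442) and 778 (2032). Called genes numbered 89 (790) for HFD Vehicle against Chow and 137 (809) for HFD PCN against HFD. For HFD Vehicle against HFD, edgeR called 0 members and 1 gene. It called 3 and 283 with no expression filter, a DESeq2 refit 2 and 268, and the authors' deposited result 2 and 206. Leaving out 1 library gave 0 called members in each comparison except HFD PCN against HFD (0 to 1). Called genes were then 2 to 54 for HFD against Chow, 0 to 9 for HFD Vehicle against HFD, 0 to 46 for HFD Vehicle against Chow, 0 to 23 for HFD PCN against HFD Vehicle, 0 to 178 for HFD PCN against HFD and 141 to 718 for HFD PCN against Chow. The cause was not tested. The log2 fold change of Ccne2, HFD Vehicle over HFD, was -0.012 with no filter and -0.15 to 0.25 with 1 library left out. For HFD Vehicle over Chow, leaving out 1 library gave log2 fold changes of -0.26 to 0.80 for Mki67, -0.36 to 0.60 for Top2a, -0.35 to 0.61 for Ccnd1, -0.47 to 0.15 for Ccnb2 and -0.96 to 0.38 for Cdkn1a, and for HFD PCN over HFD -0.28 to 0.23 for Ccnd1. A filter at a mean normalized count of 10 and DESeq2 size factors kept every member count within 1.5 times. Depth limits the scarce genes: Ccnb1 had 2 to 4 reads per Chow library, and Ccna2 had 4, 13 and 4 reads in the HFD Vehicle libraries.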
